A study of Mus musculus with 6 samples.

Results

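Under anti-PD-1, CD45-sorted cells from YUMM1.7 melanomas of LysM-Cre mice (GRf/f-LysMCre) were compared with those of floxed mice (GRf/f). The comparison took in the cells of 4 mice per genotype. A cell barcode belonged to it when its most abundant hashtag, an antibody whose DNA tag marks the mouse a cell came from, had at least 10 counts and at least 70% of the barcode's hashtag counts and was listed for one of these groups. The barcode also needed at least 500 gene UMIs (unique molecular identifiers, 1 per captured RNA molecule) and at most 10% mitochondrial UMIs. These criteria gave 5059 of the 20407 cells assigned to the 16 mice of the series, 2313 from floxed and 2746 from LysM-Cre mice.

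All mice were females of the strain given as C57BL/6JRccHsd, 8 weeks old, and all carried 2 floxed copies of Nr3c1 (Nr3c1 fl/fl), the gene of the glucocorticoid receptor. LysM-Cre mice carried in addition 1 copy of LysM-Cre (tg/wt), in which the Lyz2 promoter of myeloid cells drives Cre recombinase. Mice received 250000 YUMM1.7 cells, a mouse melanoma line, under the skin. Anti-PD-1 began at about day 7, at 12.5 mg/kg and 2 doses a week over 3 weeks, and day 28 was the day of harvest. The other 8 mice, 4 of each genotype, received an isotype control antibody on the same schedule, and served here for the estimate of the spread and for the test of whether the genotype difference depended on treatment. No mice with LysM-Cre and an unfloxed Nr3c1 were among these groups, so Cre itself and recombination of the gene cannot be told apart. Recombination was not measured in any class of cells.

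The glucocorticoid receptor is held in the cytosol by heat shock proteins, binds corticosterone, and then acts in the nucleus as a transcription factor. In monocytes, macrophages and neutrophils it is known for restraining inflammatory genes and for inducing genes such as Fkbp5, Tsc22d3 and the haemoglobin scavenger receptor Cd163. Anti-PD-1 blocks an inhibitory receptor of T cells, so in these mice the antibody's direct target lies mostly on cells outside the myeloid lineages in which the Lyz2 promoter is active.

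The groups rest on 4 hashtag tags of 15 bases, each used once in either pool and printed here because they alone say which cell came from which genotype. Mice 1 and 2 of a genotype are those of pool E5, and mice 3 and 4 those of pool E6, in the order of the hashtags.
Hashtag 12 (floxed mice 1 and 3): ctgcaaatataacgg
Hashtag 13 (floxed mice 2 and 4): ctacattgcgatttg
Hashtag 14 (LysM-Cre mice 1 and 3): ctttcgccaactctg
Hashtag 15 (LysM-Cre mice 2 and 4): ccctctctggattct
The 8 mice of a pool were mixed before sorting, and 25000 cells per pool were loaded.

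Each of the 8 mice was 1 replicate. Summed gene UMIs per mouse ran from 1952741 in floxed mouse 2, with 161 cells, to 10650972 in floxed mouse 1, with 943 cells, and the median cell had between 6634.5 and 11638 gene UMIs. Of 805 barcode sequences found in both pools, 27 were kept in both. Classes named from markers carry "-like" at first mention only. The defining markers were found where the names place them: a C1qa UMI in 98.8% of macrophage-like cells, S100a9 in 98.1% of neutrophil-like cells, Cd8a in 93.1% of CD8 T-like cells, Ncr1 in 88.2% of NK-like cells and Foxp3 in 76.5% of regulatory T-like cells. A C1qa UMI was also found in 63.8% of CD8 T cells and 58.3% of NK cells. Its source there, such as free RNA in the droplets or 2 cells under 1 barcode, was not tested. Ptprc, the gene of CD45 on which the cells were sorted, had a UMI in 40.3% of the fibroblast-like cells, and Mlana, a melanoma marker, in 0% of them.

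The first question was whether Nr3c1 RNA was lower where Lyz2 is expressed. Levels are CPM, counts per 1000000 of the gene UMIs summed over a mouse's cells of one class. Macrophages had 57.7, 60.8, 60.4 and 52.6 CPM of Nr3c1 in floxed mice 1 to 4 and 16.8, 20.6, 28.2 and 34.2 CPM in LysM-Cre mice 1 to 4. Monocyte-like cells had 70.2, 58.5, 75.3 and 57.9 CPM in floxed and 27.2, 29.7, 43.0 and 41.1 CPM in LysM-Cre mice. In both classes every LysM-Cre mouse lay below every floxed mouse. The log2 difference (LysM-Cre minus floxed) was -1.24 (SE 0.26) in macrophages and -0.93 (SE 0.19) in monocytes. Neither passed over all genes with edgeR's quasi-likelihood test (adjusted p = 0.346 and 0.255). With isotype the same differences were -0.47 and -0.33. The interaction, which tests whether the genotype difference depends on treatment, had unadjusted p = 0.045 in macrophages and 0.029 in monocytes in edgeR and did not pass after adjustment.

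Cluster 1, a myeloid cluster led by H2-Ab1, H2-Aa, H2-Eb1, H2-DMb1 and Cd74 that met too few markers of any class to be named, had 54.1, 68.0, 52.9 and 45.5 CPM of Nr3c1 in floxed mice. Its LysM-Cre mice had 31.9, 19.0, 31.8 and 34.3 CPM, again with no overlap (log2 difference -0.92, SE 0.26, edgeR adjusted p = 0.281). Neutrophils had 130, 125, 121 and 21.6 CPM in floxed and 62.4, 57.0, 61.2 and 56.9 CPM in LysM-Cre mice. The groups overlapped there because of floxed mouse 4, which had 19 neutrophils, and the log2 difference was -0.86 (SE 0.44). In classes outside the Lyz2 lineage the differences were smaller than in macrophages: 0.35 in CD8 T cells, -0.49 in CD4 T-like cells, -0.12 in NK cells and 0.16 in fibroblasts. All T and NK classes summed gave 0.00 (SE 0.16). LysM-Cre macrophages still held Nr3c1 reads in every mouse. As the reads lie at the 3′ end of a transcript and the floxed exons are not named in the labels, these levels do not measure the deletion itself.

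**Figure D1:**
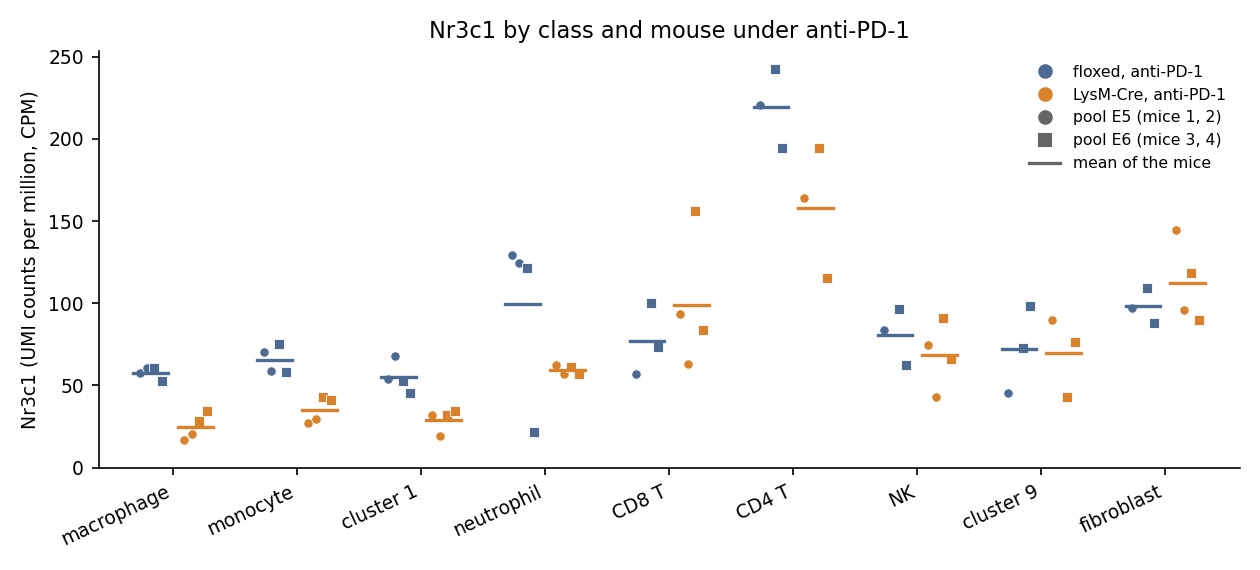
Nr3c1 level (CPM, linear axis from 0) by cell class under anti-PD-1, with 1 point per mouse (circles pool E5, squares pool E6) and a bar at the mean of the mice of a genotype. In macrophages, monocytes and cluster 1 all LysM-Cre mice sit below all floxed mice; in neutrophils floxed mouse 4, at 21.6 CPM, lies below the LysM-Cre mice.

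A second question was which cells filled the tumours. Floxed mice gave 943, 161, 696 and 513 cells (mean 578.25, SD 329, n = 4) and LysM-Cre mice 532, 603, 635 and 976 (mean 686.5, SD 198, n = 4). The exact two-sided permutation test gave p = 0.629, and 4 against 4 mice cannot go below 0.0286. Fewer cells of a kind in a mouse and a smaller part of the mixed pool cannot be told apart here. Macrophages made up 9.65, 37.3, 14.2 and 32.4% of the cells in floxed and 16.9, 36.7, 16.7 and 5.12% in LysM-Cre mice. Monocytes made up 49.4, 17.4, 29.7 and 17.3% in floxed and 15.04, 12.4, 35.4 and 27.8% in LysM-Cre mice. The groups overlapped over most of their range for both (exact permutation p = 0.686 and 0.543). Regulatory T cells were at 0.85, 1.86, 1.15 and 2.14% in floxed and 7.52, 3.15, 2.05 and 1.74% in LysM-Cre mice (exact permutation p = 0.143).

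Mast or basophil-like cells, granulocytes armed with proteases and IgE receptors, were the one class of 15 whose mice did not overlap. They made up 0.85, 3.11, 1.58 and 2.73% of the cells in floxed and 0.75, 0.17, 0.31 and 0.41% in LysM-Cre mice. The exact permutation test gave its lower limit, p = 0.0286, with adjusted p = 0.429 over the 15 classes and p = 0.0556 when mice were relabelled within pools. The class joined cluster 20, led by Mcpt2, Cma1 and Mcpt4, and cluster 24, led by Mcpt8, Cyp11a1 and Alox15. Cluster 20 took 0.64, 3.11, 0.86 and 2.73% of the cells in floxed and 0.38, 0.17, 0.31 and 0.10% in LysM-Cre mice. Cluster 24 took 0.21, 0, 0.72 and 0% against 0.38, 0, 0 and 0.31%, so the lower share lay in cluster 20. The whole class held 49 cells in all 8 mice. Without cells of high doublet score the mice overlapped, and the difference in mean share was -1.16 percentage points in place of -1.66 (exact permutation test, adjusted p = 0.643). cDC2-like cells, dendritic cells that present antigen to CD4 T cells, were at 2.65, 1.24, 4.89 and 4.48% in floxed and 2.44, 0.50, 1.26 and 0.51% in LysM-Cre mice, with an overlap (exact permutation p = 0.0857). Neutrophils made up 35.2% of the cells of LysM-Cre mouse 4 and between 3.70 and 13.7% in the other 7 mice.

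**Figure D2:**
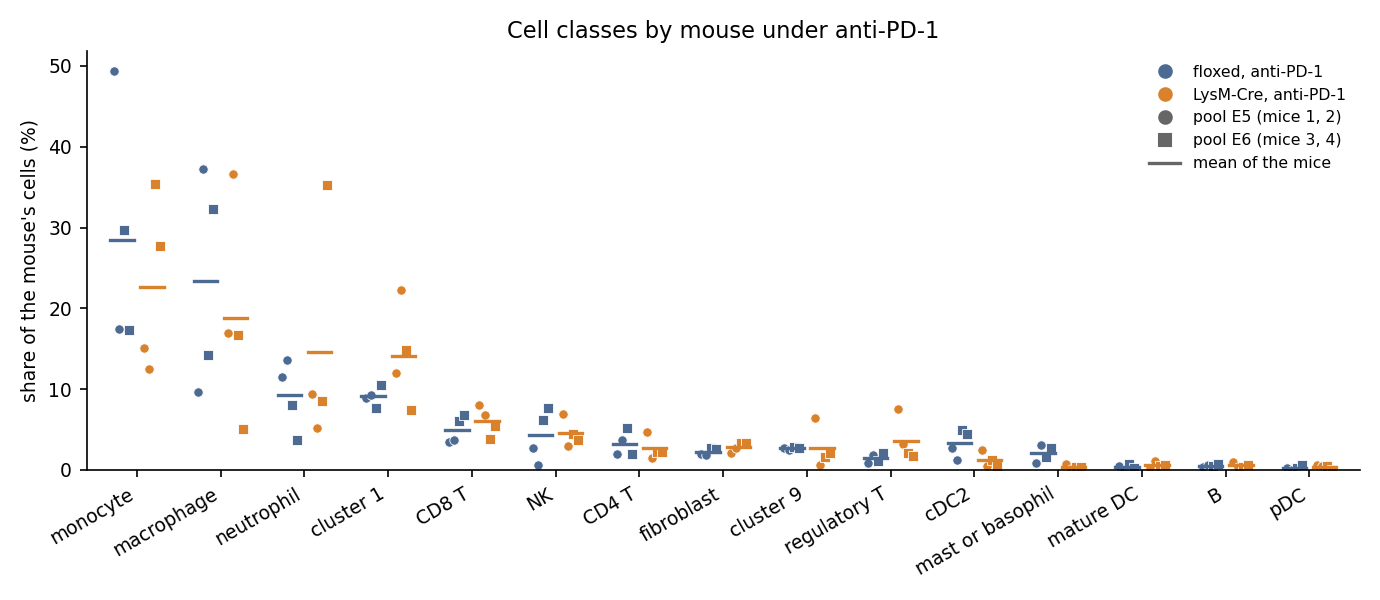
Share of each mouse's cells (%) in each class or unnamed cluster under anti-PD-1, with 1 point per mouse (circles pool E5, squares pool E6) and a bar at the mean of a genotype. The mast or basophil class is the one in which the 4 floxed mice, from 0.85 to 3.11%, lie above the 4 LysM-Cre mice; the 35.2% of neutrophils belongs to LysM-Cre mouse 4.

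The classes were not made of the same subclusters in every mouse, which bears on each comparison within them. In macrophages, cluster 14, led by Clec4b1, Cd300e, Cadm1, Fcrl5 and Klra17, took 12.1, 5.0, 9.1 and 26.5% of the class in floxed and 5.6, 51.6, 30.2 and 58.0% in LysM-Cre mice. Cluster 12, led by genes of dividing cells such as Birc5 and Mki67, took 31.9, 15, 44.4 and 38.0% in floxed and 25.6, 19.5, 26.4 and 12% in LysM-Cre mice. Cluster 3, led by Folr2, Gas6, Cbr2, Ccl8 and Pf4, took the rest. In monocytes, cluster 16, led by Nos2, Mmp12, Inhba, Cxcl3 and Hilpda, took 41.4, 32.1, 11.6 and 9.0% in floxed and 17.5, 8.0, 18.7 and 14.8% in LysM-Cre mice. Cluster 4, led by the interferon-induced genes Ifit1bl1, Ifit2 and Rsad2, took 7.3, 3.6, 13.5 and 29.2% in floxed and 18.8, 37.3, 17.8 and 14.4% in LysM-Cre mice. LysM-Cre mouse 1 was the one LysM-Cre mouse whose share of cluster 14 lay within the range of the floxed mice.

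Across all genes few calls were made. At edgeR adjusted p under 0.05 the genotype difference under anti-PD-1 called 0 of 9921 genes in macrophages (0%), 0 of 9090 in monocytes (0%), 0 of 2234 in neutrophils (0%), 0 of 3077 in CD4 T cells (0%) and 0 of 5773 in NK cells (0%). It also called 0 of 10967 in monocytes, macrophages and cluster 1 summed (0%). At unadjusted p under 0.05 these 6 comparisons held 1086, 708, 171, 186, 303 and 858 genes, and DESeq2 at adjusted p 0.05 called 17, 9, 0, 1, 0 and 5. Calls were made in cluster 1 (1 of 8320 genes, 0.0120%), CD8 T cells (1 of 6319, 0.0158%), fibroblasts (1 of 8274, 0.0121%), T and NK cells summed (2 of 9065, 0.0221%) and cluster 9 (6 of 4944, 0.121%). Cluster 9 is an unnamed lymphoid cluster with Cd3e in 81.7% and Cd8a in 29.8% of its cells, led by Trdc, Tcf7, Klra6, Klra1 and Tcrg-C4. The called genes are Hspa5, Hspa1a, Hspa1b, Ccnd1, Klf6, Dnaja1, Ifng, Ccl4 and Rgs1, and all were lower in LysM-Cre mice. On simulated counts with the macrophages' means and these numbers of mice, 91 of 100 genes changed 2-fold and 99 of 100 changed 4-fold were called, against 64 and 99 of 100 in CD8 T cells. The changed genes were drawn from the more abundant ones. The simulation held no differences between pools or in the make-up of a class, so it does not say how often real changes of these sizes would be called.

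Several calls were of heat shock genes. Hspa1b was called in CD8 T cells, in cluster 9 and in T and NK cells summed, which hold both, Hspa1a in T and NK cells summed, and Hspa5 in cluster 1. Hspa1a and Hspa1b encode the inducible HSP70 chaperone, which is made under heat and protein damage and during tissue handling. The 2 genes are neighbours on chromosome 17 (mm10, Hspa1b 34956429 to 34959238 and Hspa1a 34969359 to 34972156, both on the minus strand) and nearly alike, so reads may have been split between them and each value alone is uncertain. Their promoters, from 250 bases before to 50 after the start (RefSeq, GRCm38.p6), are identical at 296 of 300 bases (98.7%), and are shown because the paired genes moved together. Capitals mark the one match, on either strand, to the heat shock element core GAANNTTC, which lies 104 bases before the start.
Hspa1a promoter, chr17:34972107-34972406, minus strand: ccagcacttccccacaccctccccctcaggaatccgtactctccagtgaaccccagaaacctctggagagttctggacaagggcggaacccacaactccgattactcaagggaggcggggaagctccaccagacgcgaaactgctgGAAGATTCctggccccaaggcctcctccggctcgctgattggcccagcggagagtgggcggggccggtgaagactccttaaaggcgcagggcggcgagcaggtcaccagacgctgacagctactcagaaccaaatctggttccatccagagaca
Hspa1b promoter, chr17:34959189-34959488, minus strand: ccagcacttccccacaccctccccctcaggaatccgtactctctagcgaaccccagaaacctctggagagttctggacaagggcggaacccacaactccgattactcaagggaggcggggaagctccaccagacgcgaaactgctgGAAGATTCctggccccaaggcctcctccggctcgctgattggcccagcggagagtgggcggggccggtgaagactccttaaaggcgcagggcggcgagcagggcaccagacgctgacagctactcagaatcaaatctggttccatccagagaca
Of 32851 RefSeq promoters of this length 2582 (7.86%) hold such a match, which is a description of the letters and not of binding.

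In CD8 T cells Hspa1b fell. Floxed mice 1, 3 and 4 had 385, 750 and 387 CPM and LysM-Cre mice 1 to 4 had 29.96, 66.8, 52.1 and 18.9 CPM, with floxed mouse 2 left out for having fewer than 10 such cells. Every LysM-Cre mouse lay far below every floxed mouse that entered (log2 difference -3.51, SE 0.52, edgeR adjusted p = 0.00502). The call was lost without floxed mouse 3 (adjusted p = 0.0657) and without LysM-Cre mouse 4 (0.0945), and the difference stayed between -4.08 and -2.98 in all alternatives run. Hspa1a had 228, 380 and 228 CPM in those floxed mice and 29.96, 52.7, 71.6 and 2.70 CPM in LysM-Cre mice (-2.83, edgeR adjusted p = 0.123). Dnajb1, the HSP40 partner of this chaperone, had 105, 121 and 146 CPM against 44.9, 52.7, 19.5 and 43.2 CPM (-1.44, edgeR adjusted p = 0.323).

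Over all T and NK classes summed both genes fell. Hspa1b was at 215, 17.8, 605 and 312 CPM in floxed mice 1 to 4 and at 30.2, 44.6, 49.97 and 22.5 CPM in LysM-Cre mice, and Hspa1a at 124, 35.7, 232 and 152 CPM against 16.8, 27.3, 24.99 and 11.3 CPM. The log2 differences were -3.05 (SE 0.46) and -2.89 (SE 0.44), each with edgeR adjusted p = 0.0068. Floxed mouse 2, the mouse with the fewest cells, went against the other floxed mice: it lay below all 4 LysM-Cre mice for Hspa1b, and for Hspa1a it was the lowest floxed mouse, above the LysM-Cre mice. For Hspa1b DESeq2 gave adjusted p = 0.0737, and without the pool as covariate edgeR gave 0.172 for either gene. Cells assigned by HTODemux gave adjusted p = 0.0512 for Hspa1a. Both calls were lost without floxed mouse 1 (0.064), floxed mouse 3 (0.0667), LysM-Cre mouse 3 (0.0752) or LysM-Cre mouse 4 (0.129).

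Lower Hspa1b in LysM-Cre mice was seen as values in the other classes where it was tested, which leaves out neutrophils. Log2 differences were -2.83 in cluster 1, -2.99 in CD4 T cells and -1.56 in fibroblasts (edgeR adjusted p = 0.0727, 0.397 and 0.502). NK cells had 160, 253 and 245 CPM in floxed mice 1, 3 and 4 and 32.0, 28.7, 51.1 and 3.16 CPM in LysM-Cre mice (-2.84, edgeR adjusted p = 0.248). Monocytes had 342, 55.1, 139 and 202 CPM against 63.9, 20.2, 66.6 and 24.2 CPM (-2.26, adjusted p = 0.552 in edgeR), with an overlap through floxed mouse 2. In macrophages the levels were 83.8, 14.9, 136 and 58.5 CPM in floxed and 17.4, 24.8, 30.5 and 26.7 CPM in LysM-Cre mice, and floxed mouse 2 was again the low one. The genotype difference had the same sign with isotype, at -1.81 in CD8 T cells and -1.79 in T and NK cells summed, and no class passed the interaction test after adjustment. The dissociation stress and immediate-early list, given below, was also mostly lower in LysM-Cre monocytes, CD8 T cells and cluster 9, with medians of -0.34, -0.24 and -0.56, and its part in the heat shock differences was not tested.

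**Figure D3:**
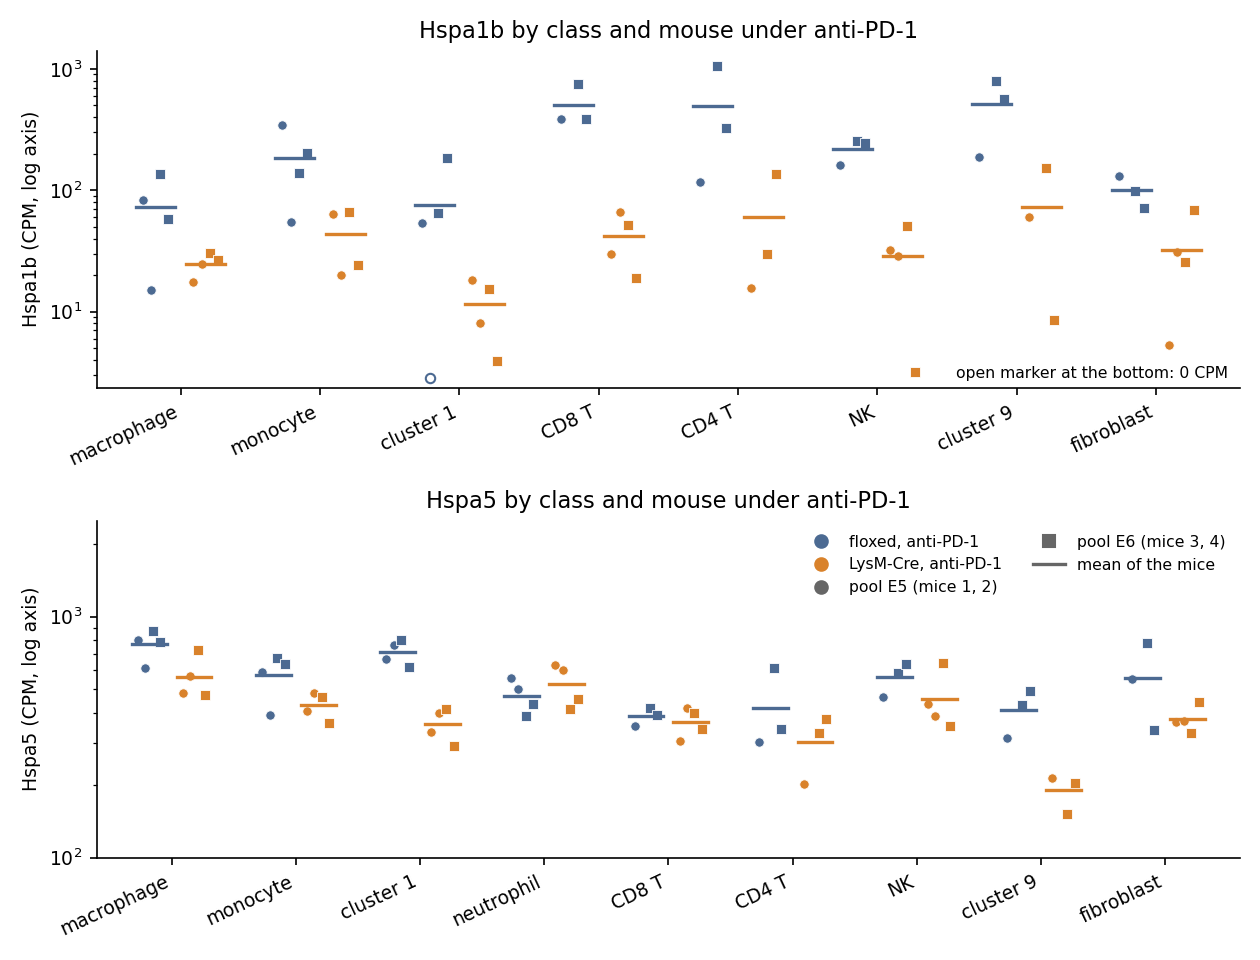
Hspa1b (upper panel) and Hspa5 (lower panel) by cell class under anti-PD-1, in CPM on log axes, with 1 point per mouse (circles pool E5, squares pool E6) and a bar at the mean of a genotype; an open marker at the bottom stands for 0 CPM. Hspa1b of CD8 T cells lies between 385 and 750 CPM in floxed and between 18.9 and 66.8 CPM in LysM-Cre mice, and Hspa5 separates the genotypes most clearly in cluster 1.

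The heat shock list holds 13 chaperones and cochaperones, these 2 genes and Hspa5 among them. In macrophages 1 of the 12 members tested was higher in LysM-Cre mice, with a median log2 difference of -0.37 beside 0.01 over all genes tested. There 8 members had an unadjusted p under 0.05 and lower levels, where 5.52% of all genes did so. Hspd1, the mitochondrial HSP60, had 181, 140, 225 and 228 CPM in floxed and 140, 115, 137 and 72.8 CPM in LysM-Cre macrophages (-0.69). Monocytes had 2 of 12 members higher (median -0.32; 5 lower and 1 higher at unadjusted p under 0.05, beside 4.49% and 3.30% of all genes), and cluster 1 had 1 of 12 higher (median -0.38; 5 lower, beside 4.76%). CD8 T cells had 2 of 11 tested members higher (median -0.29; 5 lower, beside 2.80% of all genes). No other member of the list than Hspa5, Hspa1a and Hspa1b passed edgeR's test after adjustment in a class tested. Dnaja1, a cochaperone called in cluster 9, is not on the list.

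In cluster 1 the called gene was Hspa5, which encodes BiP, the HSP70 chaperone of the endoplasmic reticulum. It lies on chromosome 2 (mm10, 34772090 to 34776529, plus strand). Its promoter (RefSeq, GRCm38.p6) is shown for the stretch in capitals, a match to CCAAT, 9 bases of any kind and CCACG, the endoplasmic reticulum stress element, 65 bases before the start; 39 of the 32851 promoters (0.119%) hold a match on either strand.
Hspa5 promoter, chr2:34771840-34772139, plus strand: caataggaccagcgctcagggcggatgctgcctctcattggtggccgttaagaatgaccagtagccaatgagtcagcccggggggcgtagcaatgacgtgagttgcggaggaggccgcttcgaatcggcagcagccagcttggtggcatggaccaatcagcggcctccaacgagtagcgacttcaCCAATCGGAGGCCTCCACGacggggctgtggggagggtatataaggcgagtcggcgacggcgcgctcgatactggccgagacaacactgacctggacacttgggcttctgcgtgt
Hspa5 fell from 665, 764, 797 and 615 CPM in floxed mice to 332, 398, 416 and 291 CPM in LysM-Cre mice. The groups were far apart for their spread (log2 difference -0.97, SE 0.14, edgeR adjusted p = 0.0099), and the isotype mice gave -0.21. The interaction had unadjusted p = 0.001 and adjusted p = 0.89 in edgeR. Leaving out LysM-Cre mouse 1 or 4 took the call away (adjusted p = 0.0849 and 0.067), while the difference stayed between -1.05 and -0.88.

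Other endoplasmic reticulum proteins were among the genes of lowest unadjusted p in cluster 1, with none past adjustment. Sdf2l1, a BiP cofactor, had 161, 256, 139 and 138 CPM in floxed and 63.7, 83.4, 75.3 and 60.6 CPM in LysM-Cre mice (-1.19, edgeR adjusted p = 0.0727). Manf, a secreted protein held by BiP, had 229, 251, 233 and 197 CPM against 129, 162, 124 and 94.9 CPM (-0.81). Dnajb11, a BiP cochaperone, had 117, 115, 134 and 112 CPM against 82.1, 75.9, 77.1 and 75.1 CPM (-0.63). The 3 were picked among genes whose mice did not overlap between genotypes. The chaperones Hsp90b1 (-0.49), Pdia3 (-0.45) and Calr (-0.56) were also lower in LysM-Cre mice. They were chosen after their values were seen, from more endoplasmic reticulum genes than are given here. Timm8a1, a mitochondrial import protein, had 34.1, 31.4, 35.3 and 30.4 CPM against 19.6, 16.7, 14.5 and 11.9 CPM (-1.07, edgeR adjusted p = 0.0727). In macrophages Hspa5 had 798, 613, 873 and 787 CPM in floxed and 482, 567, 727 and 472 CPM in LysM-Cre mice, with an overlap (-0.42), and in monocytes the groups overlapped too (-0.45).

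On the other side, Csf3r, the receptor of the growth factor G-CSF, had 32.5, 5.23, 28.2 and 18.2 CPM in floxed and 77.2, 56.9, 75.3 and 79.1 CPM in LysM-Cre cluster 1 (1.49, edgeR adjusted p = 0.0727). Selenop, a selenium carrier, had 222, 277, 291 and 238 CPM against 485, 383, 362 and 432 CPM (0.73). Abcg1, a cholesterol exporter, had 57.5, 68.0, 82.9 and 59.2 CPM against 108, 96.6, 119 and 158 CPM (0.86). These 3 genes too were picked among genes without overlap, and the isotype differences were -0.21, 0.22 and -0.05. Adam17 (0.63) and Agtrap (0.85) completed the 5 genes of lowest unadjusted p in this direction. Of the lists, MHC class II presentation had 6 of 9 members higher (median 0.20; 4 at unadjusted p under 0.05, beside 4.36% of all genes), and cell cycle had 3 of 14 higher (median -0.64; 5 lower, beside 4.76%). Cd74, the invariant chain of MHC class II, was at 14364, 12958, 14404 and 13246 CPM in floxed and 18405, 18033, 16011 and 16577 CPM in LysM-Cre cluster 1 (0.33, edgeR adjusted p = 0.217).

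Macrophages showed higher interferon-induced genes in LysM-Cre mice without any gene passing over all genes. Of 34 listed type I interferon response genes 32 were tested, and all 32 had a positive difference, with a median of 0.74 beside 0.01 over all genes. Of these 11 had unadjusted p under 0.05, where 5.42% of all genes did so in that direction. Their summed level was 2715, 1718, 4192 and 2289 CPM in floxed and 3040, 5193, 4354 and 5613 CPM in LysM-Cre mice, so floxed mouse 3 lay above LysM-Cre mouse 1. Slfn8, the member of lowest unadjusted p, had 21.8, 16.9, 31.5 and 26.5 CPM against 37.0, 51.5, 50.5 and 72.8 CPM (1.06). Ly6e, the most abundant member, had 586, 421, 787 and 661 CPM against 598, 1348, 937 and 1223 CPM (0.77), with an overlap. The list's median stayed between 0.55 and 1.09 in the alternatives run and was -0.19 with isotype. LysM-Cre mice 2, 3 and 4, the higher ones, are also those with 51.6, 30.2 and 58.0% of their macrophages in cluster 14. The part of that make-up in the difference was not tested.

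Antigen presentation genes in macrophages had the same sign. MHC class I presentation had 17 of 21 members higher (median 0.36, beside 0.01 over all genes; 7 higher and 1 lower at unadjusted p under 0.05, beside 5.42% and 5.52% of all genes). B2m, its shared light chain, was at 2391, 1715, 2581 and 2049 CPM in floxed and 2789, 3474, 2955 and 3391 CPM in LysM-Cre mice, with no overlap (0.56). MHC class II presentation had 9 of 10 tested members higher (median 0.82; 1 at unadjusted p under 0.05). H2-Aa had 2579, 1393, 2144 and 932 CPM in floxed and 1670, 2384, 3800 and 5246 CPM in LysM-Cre mice, and the groups overlapped. The 2 pools differed for that list, with a within-pool median of -0.05 in E5 and 1.16 in E6. Interferon gamma response genes had 17 of 20 members higher (median 0.45; 0 at unadjusted p under 0.05 by edgeR).

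Cell cycle genes lay lower in LysM-Cre macrophages, 0 of 25 being higher (median -0.38, beside 0.01 over all genes; 7 at unadjusted p under 0.05, beside 5.52% of all genes lower). Cdk1, the kinase that starts mitosis, had 95.3, 65.8, 127 and 107 CPM in floxed and 79.6, 58.6, 77.0 and 47.5 CPM in LysM-Cre mice (-0.57), with an overlap. The dividing cluster 12 was a smaller part of the macrophages in all 4 LysM-Cre mice than in floxed mice 1, 3 and 4, with floxed mouse 2 among the LysM-Cre mice, and its part in the list's median was not tested. Glucocorticoid-induced genes were split: 13 of 26 tested members were higher (median 0.01; 1 higher and 2 lower at unadjusted p under 0.05, beside 5.42% and 5.52%). Fkbp5, which curbs the receptor's ligand binding, had a log2 difference of -0.33, and Tsc22d3, an anti-inflammatory target, -0.20. Mt1, the most abundant member, a metal-binding protein, was at 682, 516, 745 and 738 CPM in floxed and 489, 430, 527 and 688 CPM in LysM-Cre mice (-0.32).

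Macrophage markers of other cells were also uneven. Summed neutrophil markers were at 135, 137, 515 and 200 CPM in floxed and 245, 136, 192 and 902 CPM in LysM-Cre macrophages, and 7 of 9 were higher. Summed T and NK markers were at 21.2, 13.9, 44.2 and 30.5 CPM in floxed and 133, 39.3, 19.97 and 25.3 CPM in LysM-Cre mice, and 8 of 9 were higher. LysM-Cre mouse 4 stood out for the first and LysM-Cre mouse 1 for the second. Their part in the macrophage differences was not tested.

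The macrophage genes of lowest unadjusted p without overlap all had edgeR adjusted p = 0.346. Higher in LysM-Cre mice was Pltp, a phospholipid transfer protein, with 166, 331, 230 and 208 CPM in floxed and 369, 385, 413 and 428 CPM in LysM-Cre mice (0.81). Rnf111 (0.67), Pfkfb4 (0.63), a regulator of glycolysis, Zdhhc9 (0.71) and Eps15l1 (0.80) followed. Lower were Rrp9, a factor of ribosomal RNA processing, with 17.6, 14.9, 17.7 and 20.2 CPM against 8.38, 10.6, 7.05 and 5.94 CPM (-1.11), and Cct6a, a subunit of the cytosolic chaperonin, with 195, 171, 205 and 186 CPM against 140, 118, 146 and 84.7 CPM (-0.60). Phf5a, a splicing factor (-0.58), and Timm50, of mitochondrial import (-0.63), were the other 2 besides Nr3c1.

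**Figure D4:**
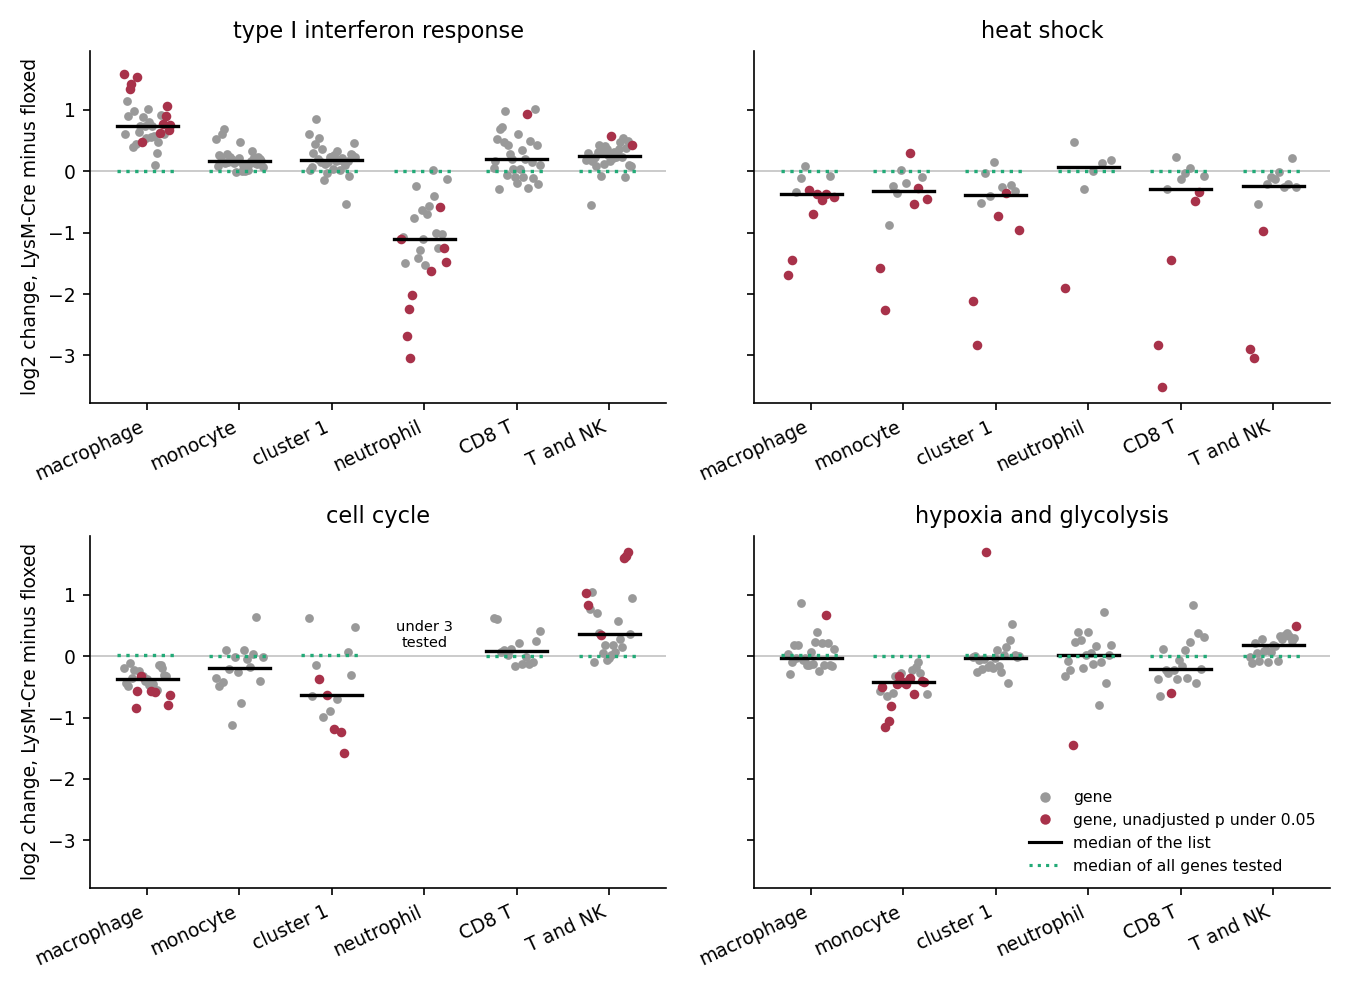
Log2 difference (LysM-Cre minus floxed, anti-PD-1) of every tested gene of 4 lists in 6 classes; each point is a gene (dark red where its unadjusted edgeR p was under 0.05), the black bar is the list's median and the green dotted line the median of all genes tested. Type I interferon genes sit above 0 in macrophages (median 0.74) and mostly below 0 in neutrophils (median -1.10, which turned to 0.17 without floxed mouse 3), and hypoxia and glycolysis genes sit below 0 in monocytes (median -0.42).

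In monocytes genes of hypoxia and glycolysis lay lower in LysM-Cre mice, without a gene past adjustment. Of its 23 tested members 0 were higher in LysM-Cre mice (median -0.42, beside 4.49% of all genes lower at unadjusted p under 0.05), and 12 had such a p. Their summed level was 11929, 9833, 8158 and 8024 CPM in floxed and 7736, 7259, 7903 and 6188 CPM in LysM-Cre mice, with no overlap. Pkm, the last kinase of glycolysis, had 1663, 1550, 1244 and 1094 CPM against 1106, 998, 1087 and 903 CPM (-0.45). Floxed mice 1 and 2, the highest, were those with most monocytes in cluster 16, and without floxed mouse 1 the median was -0.24. Dissociation stress and immediate-early genes had 3 of 22 members higher (median -0.34; 9 lower at unadjusted p under 0.05). Dusp1, a phosphatase induced by stress and by glucocorticoids, had 1050, 1016, 1817 and 1593 CPM in floxed and 720, 602, 912 and 1499 CPM in LysM-Cre mice (-0.59), with an overlap through LysM-Cre mouse 4.

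Glucocorticoid-induced genes in monocytes had 6 of 23 members higher (median -0.18; 6 lower at unadjusted p under 0.05, beside 4.49% of all genes). Cebpb, a transcription factor of inflammatory monocytes and the most abundant member, had 1745, 2190, 1737 and 1771 CPM in floxed and 1628, 1362, 1467 and 1616 CPM in LysM-Cre mice (-0.31). The list's within-pool median was -0.60 in pool E5 and 0.07 in pool E6, so the sign rested on 1 pool. Type I interferon genes had 31 of 32 members higher with a median of 0.17 and 0 at unadjusted p under 0.05 in edgeR, and the median was -0.07 without floxed mouse 2. Prdm1, a transcriptional repressor, had 88.0, 89.5, 77.3 and 85.7 CPM in floxed and 67.0, 46.3, 50.2 and 47.1 CPM in LysM-Cre monocytes (-0.73, edgeR adjusted p = 0.304, isotype -0.50). Snapc1 (-0.79), Arl3 (-0.77) and B930036N10Rik (-0.94) were lower too, and Susd3 (0.79), Ypel3 (0.71), Sh2d1b1 (0.87) and Nom1 (0.76) higher. Prdm1 and these genes were picked among those without overlap between genotypes, and none passed after adjustment. At unadjusted p under 0.05 in edgeR, 4.49% of all genes were lower and 3.30% higher.

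Lyz1 and Lyz2, neighbouring lysozyme genes on chromosome 10 (mm10, 117287795 to 117292868 and 117277541 to 117282272), bear on the Cre allele, which sits at Lyz2. Monocytes had 8.82, 13.8, 4.04 and 16.9 CPM of Lyz1 in floxed and 162, 159, 139 and 83.6 CPM in LysM-Cre mice (3.98, SE 0.68, edgeR adjusted p = 0.186). Lyz2 was at 6570, 10990, 8214 and 9036 CPM in floxed and 4995, 4385, 4544 and 3950 CPM in LysM-Cre monocytes (-0.98, edgeR adjusted p = 0.547). Both pairs of groups stood clear of each other. With isotype Lyz1 differed by 4.06, close to the anti-PD-1 value. The 2 genes are near-identical in sequence, and reads of one may have been counted for the other.

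Cluster 9 gave 6 calls over 3 mice per genotype, floxed mice 1, 3 and 4 and LysM-Cre mice 1, 3 and 4, all genes being lower in LysM-Cre mice. Klf6, an immediate-early transcription factor, fell from 533, 920 and 1312 CPM to 239, 389 and 392 CPM (-1.30, SE 0.22, edgeR adjusted p = 0.00736). Ifng, the cytokine interferon gamma, fell from 91.1, 109 and 339 CPM to 24.9, 21.6 and 8.52 CPM (-2.87, SE 0.55, edgeR adjusted p = 0.0134). Dnaja1, an HSP40, fell from 468, 884 and 733 CPM to 219, 389 and 298 CPM (-1.18), Rgs1, which damps chemokine signals, from 384, 957 and 831 CPM to 170, 281 and 188 CPM (-1.61), and Hspa1b from 189, 793 and 569 CPM to 59.9, 151 and 8.52 CPM (-2.78). Ccl4, a chemokine, was called at 1015, 100 and 940 CPM against 120, 108 and 51.1 CPM (-2.80), although floxed mouse 3 lay among the LysM-Cre mice, and it was lost without floxed mouse 1 (edgeR adjusted p = 0.286), LysM-Cre mouse 1 (0.0623) or LysM-Cre mouse 4 (0.116). All 6 calls were lost without the pool as covariate (adjusted p from 0.197 to 0.348), and Klf6 was the one kept whichever mouse was left out. Without LysM-Cre mouse 4 adjusted p was 0.221 for Ifng, 0.239 for Rgs1 and 0.241 for Hspa1b. DESeq2 gave 0.0603 for Ccl4 and 0.0978 for Hspa1b, and the anti-PD-1 mice alone gave 0.064 for Dnaja1. Without floxed mouse 3 the edgeR adjusted p was 0.0674 for Dnaja1, 0.0872 for Rgs1 and 0.0768 for Hspa1b. Without LysM-Cre mouse 1 it was 0.0623 for Dnaja1, without floxed mouse 4 0.0999 for Ifng, and without floxed mouse 1 or LysM-Cre mouse 3 0.0768 and 0.0832 for Rgs1. With isotype Klf6 differed by -0.04 and Ifng by -0.14, and neither passed the interaction test after adjustment.

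Cd8a RNA and the CD8a antibody of cluster 9 were higher in LysM-Cre mice. Cd8a was picked among genes whose mice did not overlap between genotypes. Cd8a RNA was at 71.6, 109 and 43.7 CPM in floxed and 185, 238 and 205 CPM in LysM-Cre mice (1.44, edgeR adjusted p = 0.172). The CD8a antibody, in antibody CPM (per 1000000 antibody counts of a mouse's cells of the class), was at 18298, 20107 and 7145 in floxed and 32177, 34065 and 51347 in LysM-Cre mice. That was a rise (log2 difference 1.26, edgeR adjusted p = 0.0344), 1 call among 74 antibodies (1.35%). It was lost without floxed mouse 1 (0.059), floxed mouse 4 (0.161), LysM-Cre mouse 3 (0.0526) or LysM-Cre mouse 4 (0.195), and without each mouse's highest barcode (0.0643). In the anti-PD-1 mice alone adjusted p was 0.574, and with scaling by library size it was 0.171. The part of a different mix of cells in the 6 gene calls was not tested. Of the lists, cytotoxic effector genes had 3 of 15 members higher (median -0.64; 6 lower and 1 higher at unadjusted p under 0.05, beside 3.90% and 3.07% of all genes), and heat shock genes 1 of 11 (median -0.68; 6 lower). Dissociation stress and immediate-early genes had 4 of 21 higher (median -0.56; 8 lower).

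CD8 T cells had Prf1, the pore-forming protein of killer cells, at 504, 294 and 723 CPM in floxed mice 1, 3 and 4 and 176, 334, 247 and 240 CPM in LysM-Cre mice (-1.05), with an overlap. Cytotoxic effector genes had 5 of 19 members higher there (median -0.18; 3 lower and 1 higher at unadjusted p under 0.05, beside 2.80% and 2.33% of all genes). Exhaustion genes had 5 of 14 higher (median -0.10). Crtam, an adhesion receptor of activated killer cells, had 28.5, 31.1 and 34.4 CPM in floxed and 93.6, 56.3, 52.1 and 140 CPM in LysM-Cre CD8 T cells (1.58, edgeR adjusted p = 0.324). Wdr33 (0.92), Coq5 (2.32), Polr3a (2.40) and mt-Nd2 (0.48) were higher as well, and like Crtam were picked among genes without overlap. The lowest included Axl (-2.47) and Chil3 (-3.16), which are myeloid genes. Summed myeloid markers in these cells were 2070, 2626 and 1966 CPM in floxed and 1813, 967, 2351 and 1691 CPM in LysM-Cre mice, and their part was not tested.

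NK cells had 27.8, 33.2 and 34.6 CPM of Cxcr6, a chemokine receptor of tissue-resident lymphocytes, in floxed mice 1, 3 and 4 and 2.67, 4.79, 0 and 0 CPM in LysM-Cre mice (edgeR adjusted p = 0.308). Spcs2, a subunit of the signal peptidase, had a log2 difference of -0.63. Git2 (0.80), Zfand3 (1.05), Top2b (0.74), Sirt3 (1.16) and Pdcd2 (1.16), picked among genes without overlap, were higher in LysM-Cre NK cells. CD4 T cells of LysM-Cre mice 1, 3 and 4 had 164, 74.9 and 41.9 CPM of Cd8b1, which was at 0 in the 3 floxed mice, and 6081, 7996 and 5283 antibody CPM of CD8a against 796, 722 and 327. Both readouts of CD8 were higher in the class named CD4 T, and neither passed after adjustment (edgeR adjusted p = 0.682 and 0.199). Both were picked among features without overlap between genotypes, so their separation was set by that choice.

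Over T and NK cells summed, cell cycle genes had 20 of 23 members higher in LysM-Cre mice (median 0.36; 6 higher at unadjusted p under 0.05, beside 2.79% of all genes). Ube2c, which drives cells out of mitosis, had 9.05, 0, 13.7 and 8.07 CPM in floxed and 38.6, 33.1, 53.8 and 13.3 CPM in LysM-Cre mice (1.63), with an overlap of floxed mouse 3 and LysM-Cre mouse 4. The median was -0.02 without LysM-Cre mouse 2 and 0.09 without cells of high doublet score. Regulatory T function genes had 12 of 18 members higher (median 0.16; 3 at unadjusted p under 0.05). Ctla4, an inhibitory receptor abundant on regulatory T cells, had 68.5, 53.5, 133 and 143 CPM in floxed and 272, 157, 161 and 240 CPM in LysM-Cre mice (1.002, edgeR adjusted p = 0.557), with no overlap. The share of regulatory T cells was itself higher in LysM-Cre mice 1 and 2 than in any floxed mouse, and its part in the Ctla4 level was not tested. Cytotoxic effector genes had 5 of 21 higher (median -0.14; 4 lower, beside 2.82% of all genes).

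Neutrophils showed the reverse sign of macrophages for interferon genes, and the sign rested on 1 mouse. Type I interferon response genes had 1 of 26 members higher in LysM-Cre mice (median -1.10; 9 lower at unadjusted p under 0.05, beside 4.83% of all genes). Their summed level was 6651, 2993, 20952 and 3809 CPM in floxed and 6124, 5354, 6125 and 2638 CPM in LysM-Cre mice. Isg15, a ubiquitin-like protein induced by interferon, was at 1137, 513, 4741 and 368 CPM in floxed and 902, 1509, 1062 and 199 CPM in LysM-Cre mice. Floxed mouse 3 thus held the high values. Without it the list's median was 0.17 and that of the interferon gamma response list turned from -1.68 (0 of 10 members higher, 6 lower at unadjusted p under 0.05) to 0.59. Of the genes without overlap, Klra2 had 115, 152, 129 and 130 CPM against 62.4, 42.7, 61.2 and 64.6 CPM (-1.02), and Fgl2 (-0.78), Hsp90b1 (-1.22), Rab44 (-1.06) and Mical1 (-1.19) were lower. Pet100 (1.01), Tcp11l2 (1.44), Tuba4a (1.54), Cdkn2d (1.03), a cell cycle inhibitor, and Pilrb2 (0.96) were higher, and each of the 10 had edgeR adjusted p = 0.556. At unadjusted p under 0.05 in edgeR, 4.83% of all genes were lower and 2.82% higher.

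In fibroblasts Ccnd1, which encodes cyclin D1, fell from 478, 447 and 365 CPM in floxed mice 1, 3 and 4 to 204, 164, 225 and 126 CPM in LysM-Cre mice (-1.29, SE 0.19, edgeR adjusted p = 0.0441). The call did not hold with HTODemux cells (adjusted p = 0.538), in the anti-PD-1 mice alone (0.233), with scaling by library size (0.0584) or without the pool as covariate (0.0809), though the groups did not overlap. Leaving out floxed mouse 1, 3 or 4 gave 0.222, 0.188 and 0.115, and LysM-Cre mouse 1 or 2 gave 0.144 and 0.131. Myeloid markers in this class had 12 of 12 members higher in LysM-Cre mice (median 1.39; 10 at unadjusted p under 0.05, beside 5.12% of all genes). Their summed level was 2370, 4377 and 2656 CPM in floxed and 9887, 4138, 14318 and 8565 CPM in LysM-Cre mice, and their part in the fibroblast differences was not tested. Glucocorticoid-induced genes had 18 of 23 higher (median 0.53; 6 higher), and heat shock genes 0 of 12 (median -0.39; 6 lower, beside 4.33% of all genes). The podoplanin antibody, a fibroblast surface marker, was at 122482, 97968 and 86412 antibody CPM in floxed and 33025, 56339, 61276 and 42103 in LysM-Cre mice (-1.35, edgeR adjusted p = 0.0417). CD223 was at 241, 220 and 131 against 0, 65.6, 0 and 34.9 (adjusted p = 0.0417 in edgeR). These were the 2 calls among 83 antibodies (2.41%), and neither held without each mouse's highest barcode (adjusted p = 0.0709 and 0.103). Podoplanin was lost without floxed mouse 1 (0.129) or any LysM-Cre mouse (0.0533, 0.0722, 0.0648 and 0.0954 for mice 1 to 4). CD223 was lost without floxed mouse 1 (0.129), floxed mouse 3 (0.093) or any LysM-Cre mouse (0.105, 0.0722, 0.139 and 0.0766 for mice 1 to 4). With scaling by library size both were at 0.0537, and podoplanin was at 0.0586 with HTODemux cells and 0.337 in the anti-PD-1 mice alone.

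Surface antibodies in the other classes gave few calls. There were 0 of 87 in macrophages (0%), 0 of 87 in monocytes (0%), 0 of 85 in neutrophils (0%), 0 of 82 in CD8 T cells (0%), 0 of 75 in CD4 T cells (0%), 0 of 79 in NK cells (0%) and 0 of 86 in T and NK cells summed (0%) in edgeR. At unadjusted p under 0.05 these 7 held 6, 11, 5, 7, 4, 3 and 9 antibodies, and DESeq2 was not run on antibodies. In T and NK cells of floxed mouse 1 a single barcode held 170197 ITGB7 tags, 62.5% of that mouse's 272409 antibody counts there, which enter its scaling. Scaling by library size gave 1 call in CD8 T cells and 2 in T and NK cells summed, and 1 call was made in the latter without each mouse's highest barcode. In cluster 1 the chemokine receptor XCR1, a dendritic cell marker, was at 325, 347, 275 and 201 in floxed and 113, 169, 108 and 167 antibody CPM in LysM-Cre mice (-1.09, edgeR adjusted p = 0.0226), 1 call among 87 (1.15%). It did not hold without each mouse's highest barcode (adjusted p = 0.448). It was also lost without floxed mouse 1, 2 or 3 (0.158, 0.0575 and 0.0788) and without LysM-Cre mouse 1, 2 or 3 (0.11, 0.0733 and 0.261). With HTODemux cells adjusted p was 0.593, in the anti-PD-1 mice alone 0.347 and with scaling by library size 0.0955. CD169, an adhesion lectin of macrophages, was at 119, 62.6, 184 and 171 in floxed and 1016, 315, 256 and 287 in LysM-Cre monocytes (1.61, edgeR adjusted p = 0.14). PD-L1 (CD274), the ligand of PD-1, was at 13153, 7387, 14685 and 9048 in floxed and 12998, 14954, 14351 and 19231 in LysM-Cre macrophages (0.55, adjusted p = 0.782 in edgeR), with an overlap.

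CD163, the scavenger receptor that glucocorticoids induce, was the 1 call among 87 antibodies (1.15%) in monocytes, macrophages and cluster 1 summed. The tag counted for it is shown because the antibody was read beside the RNA. Both were counted in the same cells of the same mice, so they are not independent of each other.
CD163 antibody tag: gagcaagattaagac
Floxed mice 1 to 4 had 8680, 36675, 43751 and 9504 antibody CPM and LysM-Cre mice 4406, 1968, 1055 and 1411. CD163 thus fell, each LysM-Cre mouse being below each floxed mouse (-3.36, SE 0.72, edgeR adjusted p = 0.023). With isotype the difference was -1.15. In macrophages alone the levels were 53250, 53939, 122019 and 17259 in floxed and 11087, 3618, 1165 and 1276 in LysM-Cre mice (-3.85, edgeR adjusted p = 0.155).

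Few cells carried the CD163 signal. Of 883 macrophages 21 had at least 50 CD163 tags, and these held 96.6% of the tags of the class. Floxed mice gave 17 of them, 2 of 91 macrophages in mouse 1, 3 of 60 in mouse 2, 9 of 99 in mouse 3 and 3 of 166 in mouse 4. LysM-Cre mice gave 4, 2 of 90 in mouse 1, 2 of 221 in mouse 2, 0 of 106 in mouse 3 and 0 of 50 in mouse 4. A Cd163 UMI was found in 15 of the 21 (71.4%), in 21 of the other 862 macrophages (2.44%) and in 6 of 894 T and NK cells (0.671%). Antibody and RNA thus shared 15 cells, while 6 cells had the antibody alone and 21 had RNA alone. Of the 21 cells with at least 50 tags 17 lay in cluster 3. Their share of the macrophages was 2.20, 5, 9.09 and 1.81% in floxed and 2.22, 0.90, 0 and 0% in LysM-Cre mice, with an overlap. In floxed mouse 1 a single barcode held 8856 of the 9283 macrophage tags (95.4%). Without each mouse's highest barcode floxed mouse 1 had fewer macrophage tags left than LysM-Cre mouse 1, which had 2007 tags with 1362 in its highest. Without each mouse's highest barcode the antibody's adjusted p was 0.0799 in edgeR, with HTODemux cells it was 0.297 and with scaling by library size 0.0701. The call was lost without floxed mouse 2 (0.233), floxed mouse 3 (0.0855) or LysM-Cre mouse 2, 3 or 4 (0.085, 0.127 and 0.131), while the log2 difference lay between -3.99 and -2.78 with each of the 8 mice left out in turn.

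Cd163 RNA in macrophages, counted in the same cells as the antibody, was at 27.9, 54.8, 76.2 and 8.83 CPM in floxed and 1.40, 7.08, 2.35 and 1.49 CPM in LysM-Cre mice (-3.19, edgeR adjusted p = 0.374). A Cd163 UMI was found in 5.49, 13.3, 7.07 and 4.22% of the macrophages in floxed and 2.22, 1.81, 1.89 and 2.00% in LysM-Cre mice. Neither the RNA level nor this share overlapped between genotypes, yet the RNA did not pass over all genes. Cluster 3, which holds most of these cells, was 56.0, 80.0, 46.5 and 35.5% of the macrophages in floxed and 68.9, 29.0, 43.4 and 30% in LysM-Cre mice, so its share overlapped between genotypes.

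**Figure D5:**
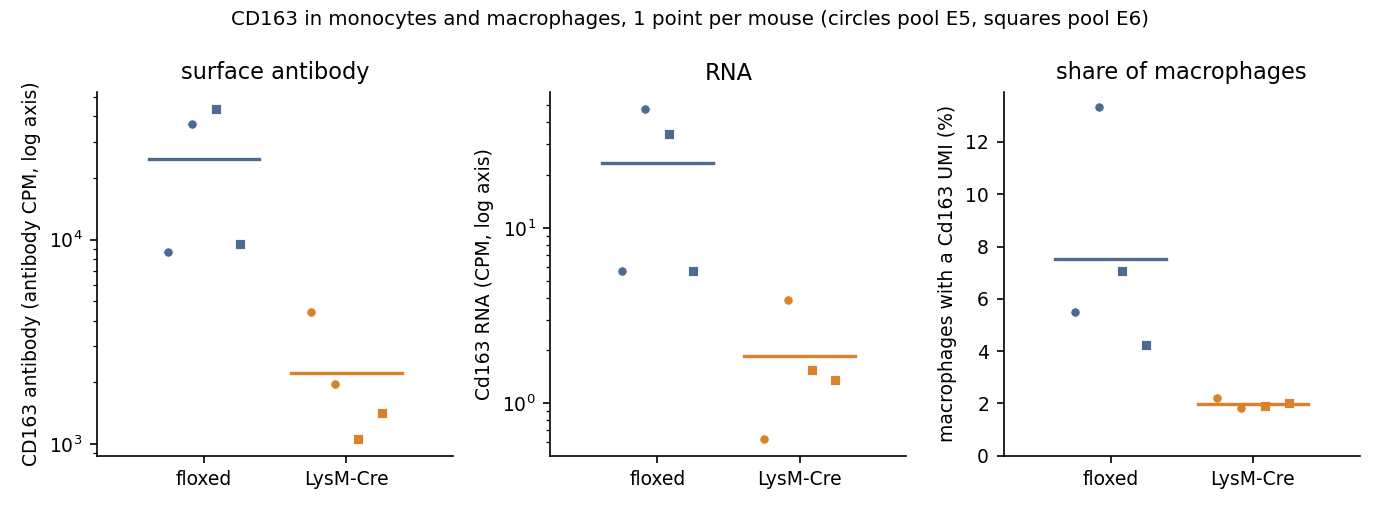
CD163 in 3 readouts under anti-PD-1, with 1 point per mouse (circles pool E5, squares pool E6) and a bar at the mean of a genotype: antibody CPM (left, log axis) and Cd163 RNA in CPM (middle, log axis) in monocytes, macrophages and cluster 1 summed, and the percentage of macrophages with a Cd163 UMI (right, axis from 0). In each panel the 4 floxed mice lie above the 4 LysM-Cre mice.

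Whether the genotype difference depended on the antibody given was tested by the interaction in the same models. By edgeR 0 genes passed in any class, with 511 at unadjusted p under 0.05 in macrophages. Among antibodies CD223 in fibroblasts passed (interaction -3.97, adjusted p = 0.04). The differences named here are therefore shown under anti-PD-1, and for genes no dependence on treatment passed the test.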

How the data were processed

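Gene and antibody values are UMI counts per cell barcode, which the authors deposited without normalization as 1 matrix per pool. The matrices come from Cell Ranger 6.1.2 per the file headers. Version 3.0.1 of Cell Ranger, and the build mm10, stand in the submitters' processing notes. Each matrix held 32285 genes and 88 surface antibodies, where the labels' protocols state 89. A deposited antibody table links hashtags to conditions. It gives hashtags 8 and 9, both of floxed isotype mice, the same tag. Mice of a condition carry no number there and were numbered only to name them.

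Pool E5 had 15301 barcodes, of which 13924 passed the UMI and mitochondrial limits and 9889 the hashtag limit. Pool E6 had 16614, 14522 and 10518. The 20407 cells, and further cells assigned by HTODemux alone, were clustered together on 2000 variable genes by the Leiden method (scanpy 1.11.5, leidenalg 0.10.2, resolution 1.0, 15 neighbours, 30 components). Clusters were named from cell type markers. Scrublet's own threshold marked 0 cells, so no cell was removed as a doublet. A score threshold set on barcodes with 2 hashtags defined high doublet scores for an alternative.

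A mouse's counts were added up over its cells of a class where it had 10 or more of them, in classes with 3 or more such mice per genotype. The sums went into edgeR 4.0.16 (TMM, filterByExpr and its quasi-likelihood test; 4 conditions plus pool), with Benjamini-Hochberg adjustment over all features of a class. Antibodies needed a total of at least 100. DESeq2 1.42.0 and HTODemux (Seurat 5.3.0, positive quantile 0.99) served in alternatives. Shares were tested by exact two-sided permutation over mice. The test was tried on simulated counts of 9921 macrophage and 6319 CD8 T genes, where 12 and 3 unchanged genes were called. The p-values measure the spread between these mice.

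Genes were named by rule: Nr3c1, every gene past adjusted p 0.05 with at least 10 CPM, the 5 of lowest unadjusted p in each direction whose mice did not overlap, and list members of lowest unadjusted p or highest level, with 3 antibodies in each direction. Not every gene and antibody so named is given in the text: most of those without a call in CD4 T cells, cluster 9 and fibroblasts, some antibodies and a gene in NK cells are not reported here. Cd163, Lyz1, Lyz2, Hspa1a, Hspa1b and Hspa5 were followed across classes after their values were seen. The comparison, the members and the gene lists were chosen with earlier results of these data known. Lists were described by counts and medians without a test.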

Additional observations from a re-analysis of the deposited data

Results flagged for a closer look

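In 61 sets of 4 mice the lowest or highest mouse was checked by its gap to its neighbour, as a share of the set's range, against Dixon's 95% critical value. The sets were shares, cell numbers, Nr3c1 levels and the levels of called genes and antibodies. In 4 sets a mouse stood apart, where chance gives about 1 in 20. Nr3c1 in neutrophils was 21.6 CPM in floxed mouse 4, with a gap of 0.924 of the range, from 19 cells. Neutrophils were 35.2% of the cells of LysM-Cre mouse 4, with a gap of 0.859. The share of pDC-like cells was 0.0% in one LysM-Cre mouse, with a gap of 0.838, in a class of 16 cells. Nr3c1 in cluster 1 was 19.0 CPM in LysM-Cre mouse 2, with a gap of 0.836.

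The CD223 antibody in fibroblasts differed by genotype to another degree with anti-PD-1 than with isotype, with an interaction of -3.97 and edgeR adjusted p = 0.04. The counts behind it were few, as 2 of the 4 LysM-Cre anti-PD-1 mice had 0.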

How the results depend on the processing

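Changing 1 choice at a time gave 3395 values of named genes and antibodies, of which 3138 kept their side of the threshold without a counted change of sign. Most of these genes had no call to lose, so that number does not say how stable the calls were. A call was lost in 89 values and gained in 161. A change of sign counted only where the gene or antibody was called or its difference exceeded its SE. Of 652 list medians, 634 moved by less than the spread between mice without a counted change of sign. For medians the sign was read only beyond 0.1. Called genes changed most without a filter on low counts, with 285 in macrophages, 116 in monocytes, 113 in cluster 1, 36 in neutrophils, 34 in CD8 T, 22 in CD4 T and 34 in NK cells, 36 in cluster 9, 269 in fibroblasts, 86 in monocytes and macrophages summed and 76 in T and NK cells summed. The cause was not tested. DESeq2 called 17 in macrophages, 9 in monocytes, 22 in cluster 1, 2 in CD8 T cells, 1 in CD4 T cells, 10 in cluster 9, 18 in fibroblasts, 5 in monocytes and macrophages summed and 1 in T and NK cells summed. The 8 anti-PD-1 mice alone gave 1 in monocytes, 8 in cluster 1, 2 in CD8 T cells, 3 in NK cells and 0 in fibroblasts. Without the pool covariate 0 genes were called in cluster 9, fibroblasts, and T and NK cells summed. HTODemux cells gave 2 in cluster 1, 0 in fibroblasts and 1 in T and NK cells summed, library size scaling 0 in fibroblasts, and at least 20 cells per mouse 2 in cluster 1. Without high doublet scores, with a score threshold set after seeing the data, 1 gene was called in macrophages, 2 in cluster 1 and 1 in NK cells.

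Antibody calls fell to 0 in cluster 1, cluster 9 and fibroblasts with the 8 anti-PD-1 mice alone, and CD4 T cells gained 1. Library size scaling gave 0 in cluster 1, cluster 9, fibroblasts, and monocytes and macrophages summed, 1 in CD8 T cells and 2 in T and NK cells summed. HTODemux cells gave 0 in cluster 1, fibroblasts, and monocytes and macrophages summed. Without each mouse's highest barcode, an alternative added after seeing the data, the counts were 0 in cluster 1, cluster 9, fibroblasts, and monocytes and macrophages summed, and 1 in T and NK cells summed.

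With 1 mouse left out, genes called ranged from 0 to 3 in cluster 1, 0 to 4 in CD8 T cells, 0 to 1 in NK cells, 4 to 11 in cluster 9, 0 to 5 in fibroblasts and 0 to 2 in T and NK cells summed. Antibodies called ranged from 0 to 2 in macrophages, CD8 T, NK, and T and NK cells summed, 0 to 1 in monocytes, cluster 1, and monocytes and macrophages summed, 0 to 6 in cluster 9 and 0 to 4 in fibroblasts. Differences in share (percentage points, LysM-Cre minus floxed) ranged from -10.5 to 0.10 in macrophages, -10.1 to 1.17 in monocytes, -1.56 to 8.47 in neutrophils, -1.21 to 0.13 in CD4 T, -1.003 to 1.32 in NK, -1.26 to 0.65 in cluster 9 and -0.117 to 0.094 in B-like cells, and cells per mouse from -30.8 to 229.8. The share of cluster 9 was 0.158 with HTODemux cells and that of NK cells -0.110 without high doublet scores.

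Log2 differences counted as changing sign with 1 mouse left out ranged from -0.085 to 1.76 for S100a8 in macrophages, -0.34 to 0.0025 for Dusp1 in cluster 1, -1.48 to 0.51 for Isg15 and -2.39 to 0.67 for Gbp2 in neutrophils, -0.59 to 1.04 for Lyz2 in NK cells and -0.016 to 0.27 for Hmgb2 in T and NK cells. List medians did so from -0.090 to 0.93 for T and NK markers and -0.38 to 0.29 for resident-type genes in macrophages, -0.068 to 0.38 for type I interferon in monocytes, -1.42 to 0.17 and -2.10 to 0.59 for type I interferon and interferon gamma in neutrophils, -0.27 to 0.020 for exhaustion in CD8 T cells and -0.016 to 0.59 for cell cycle in T and NK cells. Without high doublet scores T and NK markers in macrophages stood at -0.22 and Lyz2 in NK cells at -0.071. No paired analysis was possible because the antibody table gives the mice no replicate numbers, and the pool entered as covariate.

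Depth limits the small classes. Floxed mouse 2, with 161 cells, entered no test of CD8 T, CD4 T, NK, cluster 9 or fibroblast cells, and regulatory T, cDC2, and mast or basophil cells had too few cells per mouse for tests of genes.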
